A study of Mus musculus with 5 samples.

Results

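Chemokines are small secreted proteins that direct the movement of leukocytes, and chemokine receptors are the membrane proteins that bind them. The genes described here were the protein-coding genes of the deposited count table whose mouse symbol is Ccl, Cxcl, Ccr, Cxcr or Ackr followed by a number, together with Cx3cl1, Xcl1 and Xcr1. The rule found 63 genes among 56941 gene identifiers, 42 of them chemokines and 21 of them receptors. RNA came from the iridocorneal angle, the ring of tissue between iris and cornea that drains aqueous humor. The comparison was between 3 pools of DBA/2J mice and 2 pools of Gpnmb+ mice (DBA/2J-Gpnmb+/SjJ). A premature stop in Gpnmb is present in DBA/2J mice, a strain with pigmentary glaucoma. The Gpnmb+ strain has a functional allele of that gene on the DBA/2J background. Both genotypes carry the Tyrp1 b mutation, both were 12 months old and neither was treated, and the study states that both sexes were used. The study states 3 mice per pool, whereas the library labels of the Gpnmb+ pools name 2 animals each. Iris and ciliary body were trimmed away, and the study's methods state that remnants stayed attached.

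In this family, inflammatory chemokines such as Ccl2 and Cxcl1 are induced in injured tissue and draw monocytes and neutrophils out of the blood. Homeostatic chemokines such as Ccl19, Ccl21a and Cxcl12 are made steadily by stroma and endothelium and position dendritic cells, lymphocytes and progenitors. The conventional receptors signal through Gi proteins, and the atypical receptors (Ackr1 to Ackr4) bind chemokines without this signal and transport or remove them.

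From 43900661 to 49837758 reads per pool were counted on genes. Levels are given as CPM (counts scaled to a common library size with edgeR's TMM method), and 3 counts in a pool corresponded to 0.0591 to 0.0699 CPM. Gpnmb itself was at 43.6 to 52.0 CPM in the DBA/2J libraries and at 2260 and 2555 CPM in the Gpnmb+ libraries, which fits the labels. The trabecular meshwork markers Myoc and Angptl7 were detected in every pool. Ddx3y, a Y-linked gene, was at 35.1 to 97.1 CPM in the DBA/2J pools and at most 0.0818 CPM in the Gpnmb+ pools. Xist, which is expressed in females, was at 13.4, 0 and 54.2 CPM in DBA/2J and at 155 and 187 CPM in Gpnmb+. The study states that the Gpnmb+ RNA pools held more males than females, whereas these counts show almost no male RNA there. The sex of the mice and the genotype therefore cannot be told apart in any value below. The ciliary epithelium markers were higher in DBA/2J for 9 of 9 genes, with summed levels of 2064 to 2523 CPM against 546 to 982 CPM, and their part in the values below was not tested. In bulk tissue, fewer cells of a type and less RNA per cell cannot be told apart.

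Of the 63 members, 52 reached 10 counts in at least 1 pool and were tested with edgeR's quasi-likelihood test among 19713 genes. Ackr4 was the member that passed the threshold, an adjusted p of at most 0.05 (Benjamini-Hochberg) with a fold change of at least 1.5, and it was higher in DBA/2J. That is 1 of 52 members, and 0.502% of all tested genes were called higher. No member was called lower by edgeR or by limma-voom, against 0.294% of all tested genes by edgeR. With the unadjusted p in place of the adjusted p, 10 members were higher and 1 was lower, against 4.2% and 4.48% of all tested genes. The 10 include Cxcl3, which reached the count minimum in DBA/2J pools only. DESeq2, the tool named in the study's methods, called 4 members higher (Ackr4, Ccl22, Ccr7 and Cxcl10) and 1 lower (Cxcl17), where it called 2.76% of all tested genes higher and 1.94% lower.

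The direction of most members was upward without passing the test. The log2 fold change was above 0 for 39 of the 52 members (75.0%), against 47.4% of all tested genes, and its median was 0.36 against -0.02 for all tested genes. Every DBA/2J pool lay above both Gpnmb+ pools for 16 members, 30.8% of those tested, against 17.3% of all tested genes. The reverse held for 3 members (Ccl21a, Cxcl12 and Cxcl17), 5.77% of those tested, against 17.2% of all tested genes. Cxcl3, Ccr4 and Ccr8 reached the count minimum in DBA/2J pools only, so their highest count had to lie there, which favours a higher fold change. Among the other 49 members, 36 had a log2 fold change above 0, 13 lay wholly above the Gpnmb+ pools and the median was 0.31. The median rested in part on single pools. Without DBA/2J pool 1 it was 0.14, with 29 of 50 members above 0, and without Gpnmb+ pool 1 it was 0.78, with 41 of 52 above 0.

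**Figure D1:**
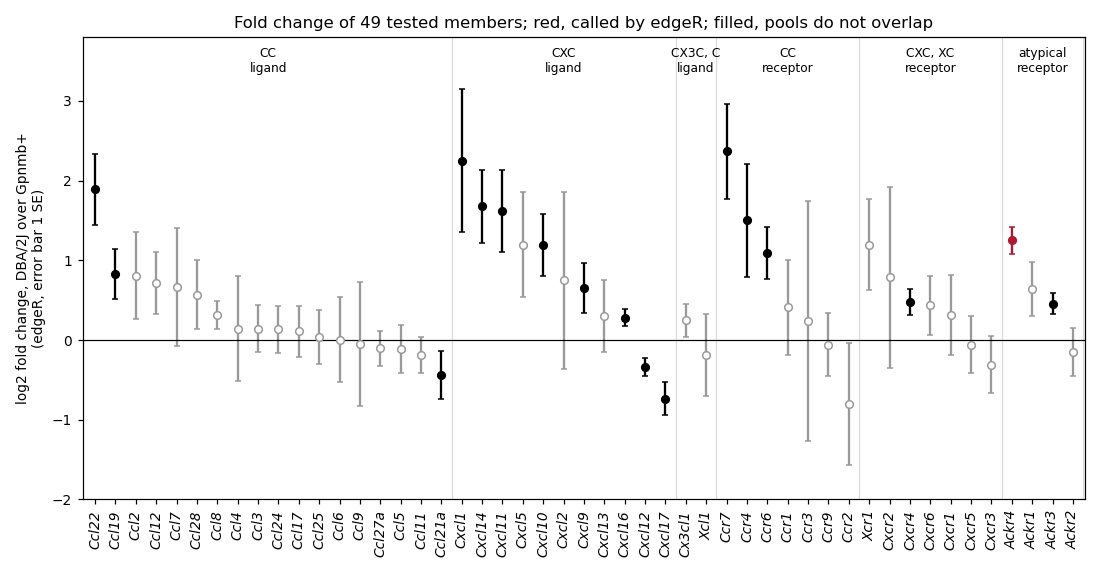
The y axis is the log2 fold change of DBA/2J over Gpnmb+ with 1 SE from edgeR, and the x axis lists 49 tested members by class. Filled points are members whose pools do not overlap between genotypes, and red marks Ackr4, the member called by edgeR. Cxcl3 and Ccr8 are left out because both Gpnmb+ pools held at most 1 count. Most filled points lie above 0, and Ccl21a, Cxcl12 and Cxcl17 lie below 0.

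By class, 13 of 18 tested CC ligands, 10 of 12 CXC ligands, 7 of 9 CC receptors, 5 of 7 CXC or XC receptors and 3 of 4 atypical receptors had a log2 fold change above 0. The median was largest in the CXC ligands, at 0.97, followed by the atypical receptors at 0.55, the CXC or XC receptors at 0.44, the CC receptors at 0.41 and the CC ligands at 0.14. Without Cxcl3, Ccr4 and Ccr8, which passed the count filter through DBA/2J pools only, the median of the CXC ligands was 0.75 and that of the CC receptors 0.24. Non-overlapping pools with the higher values in DBA/2J were found for 7 of 12 CXC ligands, 6 of 11 without Cxcl3, and for 2 of 18 CC ligands (11.1%). Among all tested genes the share was 17.3%. The CX3C and C ligands Cx3cl1 and Xcl1 went in opposite directions, and both had overlapping pools.

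The 11 members under the count minimum were Ccl1, Ccl20, Ccl26, Cxcl15 and Ccr10, with at most 5 counts in any pool, and Ccl21b, Ccl21d, Ccl21e, Ccl21f, Ccl27al and Ccl27b, with no count in any pool. The last 6 lie on chromosome 4 beside Ccl21a and Ccl27a, of which they are near-identical copies. Only uniquely aligned reads were counted, so reads from such copies may be missing from all of them, and the values of Ccl21a and Ccl27a are uncertain for the same reason.

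Levels between genes were compared as CPM per kb of exon. Among the chemokines, Ccl21a (30.9 to 75.6 CPM per kb over the 5 pools), Ccl8 (42.4 to 70.4), Cxcl12 (35.0 to 52.6) and Ccl6 (22.4 to 65.1) had the highest means, and their ranges over the pools overlapped, so their order is not resolved. Cxcl14, Cx3cl1, Cxcl16 and Ccl11 followed, with means of 24.0, 21.9, 19.5 and 19.1 CPM per kb and overlapping ranges. Among the receptors, Cxcr4 had the highest mean, 21.2 CPM per kb with a range of 17.0 to 28.9. Ccr2 came next with a mean of 8.90, but its range of 2.86 to 21.1 CPM per kb overlapped that of Cxcr4. Ackr3 (6.15 to 10.4) and Ccr1 (2.63 to 12.0) overlapped each other. At the lower end, Ccr3, Ccr4 and Ccr8 had means under 0.1 CPM per kb.

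**Figure D2:**
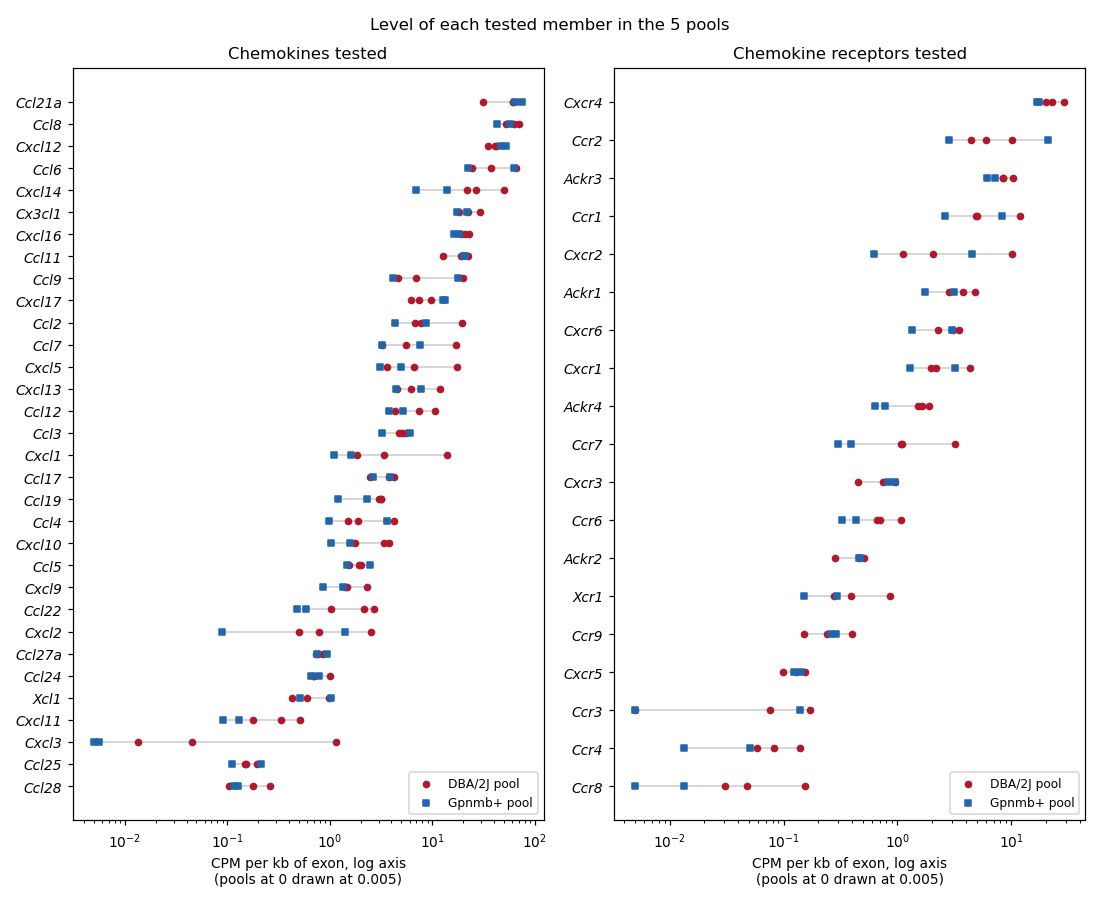
The x axis is CPM per kb of exon on a log scale and the y axis lists 51 tested members, chemokines (left) and receptors (right), in the order of their mean. Points are single pools and pools at 0 are drawn at 0.005. Chemokine means run from 0.157 CPM per kb for Ccl28 to 58.8 for Ccl21a, and receptor means from 0.0490 for Ccr8 to 21.2 for Cxcr4.

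Ackr4 is an atypical receptor that binds and removes Ccl19, Ccl21 and Ccl25, the ligands that guide dendritic cells to lymph nodes and thymocytes within the thymus. It was at 12.3, 13.3 and 15.6 CPM in the DBA/2J pools and at 6.31 and 5.23 CPM in the Gpnmb+ pools. The 2 groups did not overlap, and the lowest DBA/2J pool was well above the highest Gpnmb+ pool. This was a log2 fold change of 1.25 ± 0.17 (SE, 3 and 2 pools), with an adjusted p of 0.0444 by edgeR. The call was lost without any 1 of the 5 pools, where the log2 fold change ran from 1.12 to 1.39. Without DBA/2J pool 1, 2 or 3 the adjusted p was 0.117, 0.133 and 0.132 by edgeR. In those fits at most 0.0511% of all tested genes were called higher, against 0.502% with all pools, so calls were lost across genes. Leaving out a Gpnmb+ pool leaves 1 pool in that group, so only the fold change is given. Ackr4 lies on chromosome 9 (GRCm39 103961356 to 104004132, minus strand).

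No ligand of Ackr4 was called by edgeR or DESeq2, and the directions were mixed. Ccl19 was at 2.72, 2.73 and 2.62 CPM in DBA/2J and at 1.99 and 1.04 CPM in Gpnmb+. All DBA/2J pools were higher, with a log2 fold change of 0.82 ± 0.31 that did not pass the test (adjusted p = 0.286 by edgeR). Ccl21a, the chemokine of lymphatic endothelium, was at 30.1, 60.3 and 59.7 CPM in DBA/2J and at 62.3 and 73.5 CPM in Gpnmb+. All DBA/2J pools were lower, and pool 1 was far below the other 2. The log2 fold change of Ccl21a was -0.44 ± 0.30 (adjusted p = 0.531 by edgeR). Ccl25 was at 1.87, 2.47 and 1.93 CPM in DBA/2J and at 1.38 and 2.68 CPM in Gpnmb+, so the groups overlapped. The lymphatic endothelium markers, a list that includes Ccl21a, were mixed, with 4 of 7 higher. Reln, a secreted glycoprotein, was called higher by edgeR, at 661 to 731 CPM in DBA/2J and at 263 and 310 CPM in Gpnmb+ (log2 fold change 1.29 ± 0.12, adjusted p = 0.0244). With Reln as most of it in DBA/2J, the list's summed level was 1152 to 1242 CPM against 679 and 737 CPM in Gpnmb+, and its part in the values of Ackr4 and its ligands was not tested. Prox1, the transcription factor of lymphatic identity, was at 7.51 to 12.2 CPM in DBA/2J and at 8.57 and 14.5 CPM in Gpnmb+, with overlapping pools.

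Ccr7, the conventional receptor for Ccl19 and Ccl21, had the largest fold change among the receptors with more than 3 counts in every pool. It was at 6.30, 2.14 and 2.20 CPM in DBA/2J and at 0.591 and 0.777 CPM in Gpnmb+. DBA/2J pool 1 was the highest, and pools 2 and 3 were also above both Gpnmb+ pools. At 2.37 ± 0.59, the log2 fold change was not called by edgeR (adjusted p = 0.144) but was called by DESeq2 (adjusted p = 0.00176). Without DBA/2J pool 1 it was 1.66. Within each pool, 0.0355 to 0.209 Ccr7 reads were counted per Ccl21a read in DBA/2J, against 0.00949 and 0.0106 in Gpnmb+. This ratio does not depend on library scaling. As Ccr7 was higher and Ccl21a lower in every DBA/2J pool, the ratio had to be higher there.

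Ccr7 marks mature dendritic cells on their way to lymph nodes, as well as naive T cells. Of 12 markers of mature migratory dendritic cells, 8 were higher in DBA/2J, 6 of them with non-overlapping pools, where 17.3% of all tested genes lay wholly higher. The median log2 fold change of the 12 was 0.41. Mreg (log2 fold change -0.57 ± 0.16) and Socs2 (-0.46 ± 0.13) were lower, and their pools did not overlap either. edgeR called none of the 12. At the unadjusted p it found 4, all higher, and DESeq2 called 2. Summed over the list they gave 226 to 299 CPM for DBA/2J against 210 to 213 CPM for Gpnmb+. Il12b, an interleukin subunit made by activated dendritic cells, was at 0.810, 0.559 and 0.583 CPM in DBA/2J and at 0.158 and 0.204 CPM in Gpnmb+ (log2 fold change 1.83 ± 0.39, adjusted p = 0.105 by edgeR). The T cell markers were higher for 8 of 10 genes, 4 of them with non-overlapping pools, and 1 gene lay wholly lower. Their median log2 fold change was 0.33. The summed levels of the T cell markers were 33.9 to 51.3 CPM in DBA/2J and 28.5 to 38.4 CPM in Gpnmb+, which overlap. Fscn1, Cd40 and other genes of these lists are not specific to 1 cell type, and their part in the Ccr7 difference was not tested.

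**Figure D3:**
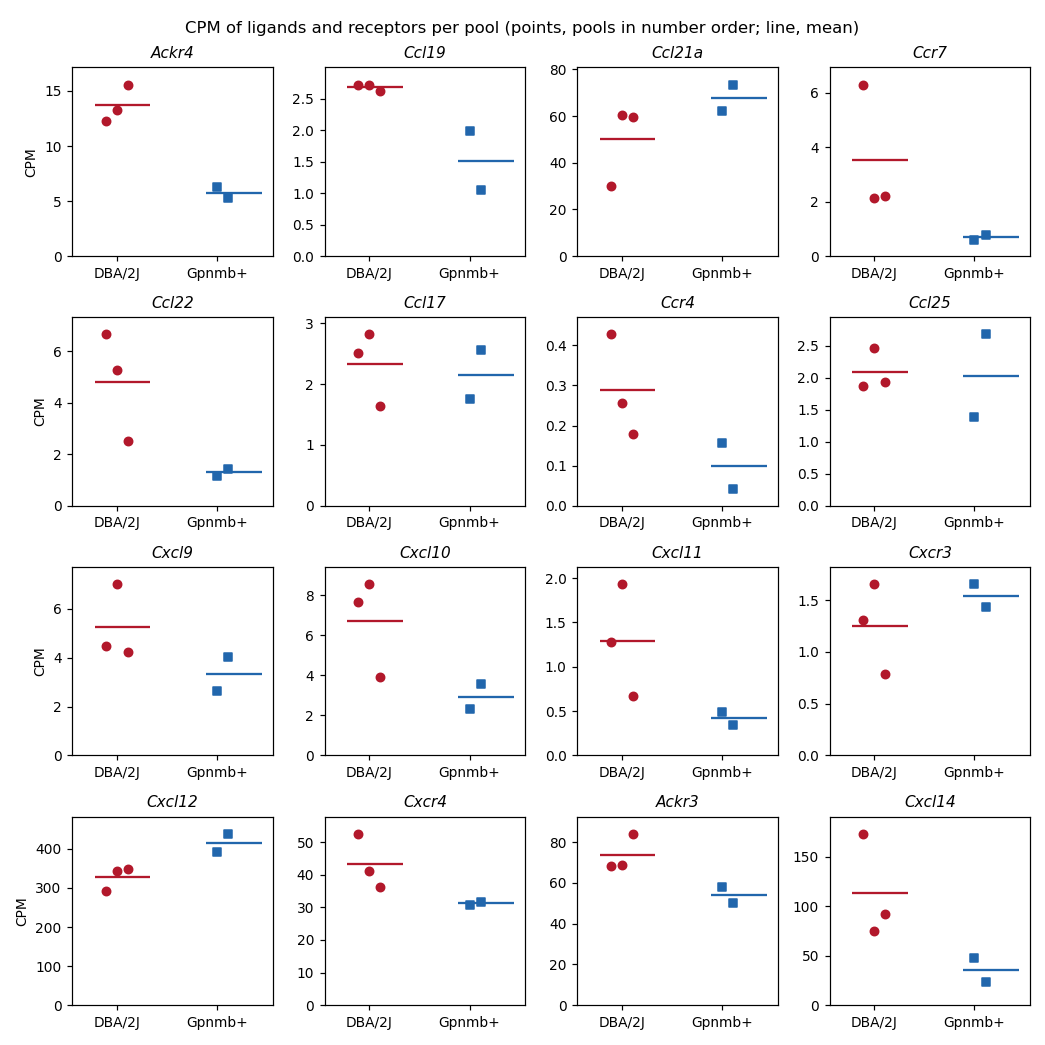
Each panel shows the CPM of 1 gene in the 3 DBA/2J pools (circles) and 2 Gpnmb+ pools (squares) in the order of the pool numbers, on a y axis that starts at 0, with a line at the group mean. Ackr4, Ccr7, Ccl22 and Cxcl10 sit higher in every DBA/2J pool, whereas Ccl17, Ccl25 and Cxcr3 overlap and Cxcl12 sits lower.

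Ccl22 and Ccl17 are the ligands of Ccr4, a receptor of regulatory and type 2 helper T cells, and both are made by dendritic cells and macrophages. The genes lie 56.0 kb apart on chromosome 8 with Cx3cl1 between them. Ccl22 was at 6.66, 5.29 and 2.51 CPM in DBA/2J and at 1.16 and 1.43 CPM in Gpnmb+. Each DBA/2J pool was above both Gpnmb+ pools. The log2 fold change of Ccl22 was 1.89 ± 0.45, not called by edgeR (adjusted p = 0.126) and called by DESeq2 (adjusted p = 0.00134). Ccl17 was at 2.52, 2.82 and 1.64 CPM in DBA/2J and at 1.75 and 2.56 CPM in Gpnmb+, and the groups overlapped (log2 fold change 0.11 ± 0.32). Per Ccl17 read there were 2.64, 1.88 and 1.53 Ccl22 reads in DBA/2J and 0.663 and 0.560 in Gpnmb+. The ratio was thus higher in every DBA/2J pool. Ccl22 has the longer exon length, so these read counts do not show which of the 2 genes had the higher level. Per kb of exon, Ccl17 had the higher mean over the 5 pools. Cx3cl1, the membrane-bound chemokine fractalkine, was at 89.4, 116 and 72.9 CPM in DBA/2J and at 69.7 and 86.6 CPM in Gpnmb+, with overlapping groups.

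Ccr4 itself was rare. Its counts were 19, 11 and 8 for DBA/2J against 8 and 2 for Gpnmb+, or 0.427, 0.256 and 0.179 CPM against 0.158 and 0.0409 CPM. The pools did not overlap, with a log2 fold change of 1.50 ± 0.71 (adjusted p = 0.373 by edgeR). For Ccr8, another receptor of regulatory T cells, the DBA/2J pools gave 10, 3 and 2 counts and the Gpnmb+ pools 1 and 0. The ratio of its summed counts per sequenced read was 11.3 with a 95% counting interval of 1.74 to 477. Without DBA/2J pool 1 the interval was 0.637 to 269, which includes a ratio of 1. Both intervals cover counting error and not the spread between pools. Ccr8 reached the count minimum in DBA/2J pools only, which favours a higher ratio, so neither interval shows a difference between genotypes. Ccr6, the receptor for Ccl20 on B cells, dendritic cells and interleukin-17-producing T cells, was at 1.62, 2.63 and 1.73 CPM in DBA/2J and at 1.06 and 0.797 CPM in Gpnmb+. Its groups did not overlap, with a log2 fold change of 1.09 ± 0.33 (adjusted p = 0.193 by edgeR). The B and plasma cell markers moved the other way, with 7 of 7 tested genes lower in DBA/2J and none called by edgeR. At the unadjusted p 5 of them were lower, and DESeq2 called 1.

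Cxcl9, Cxcl10 and Cxcl11 are the ligands of Cxcr3, the receptor of activated T cells and NK cells, and they are classic targets of interferon. They stand side by side on chromosome 5 and all 3 were higher in every DBA/2J pool. Cxcl10 was at 7.67, 8.57 and 3.95 CPM in DBA/2J and at 2.31 and 3.58 CPM in Gpnmb+. DBA/2J pool 3 was only just above Gpnmb+ pool 2. The log2 fold change was 1.19 ± 0.39, not called by edgeR (adjusted p = 0.229) and called by DESeq2 (adjusted p = 0.0429). Cxcl11 was at 1.28, 1.93 and 0.673 CPM in DBA/2J and at 0.493 and 0.348 CPM in Gpnmb+ (log2 fold change 1.62 ± 0.52, adjusted p = 0.221 by edgeR). Cxcl9 was at 4.48, 7.01 and 4.24 CPM in DBA/2J and at 2.62 and 4.03 CPM in Gpnmb+ (log2 fold change 0.66 ± 0.31, adjusted p = 0.376 by edgeR). In all 3 genes DBA/2J pool 2 was the highest of the 5 pools and DBA/2J pool 3 the lowest of its group.

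Neither Cxcr3 nor the interferon response genes followed these ligands. Cxcr3, on chromosome X, was at 1.30, 1.65 and 0.785 CPM in DBA/2J and at 1.66 and 1.43 CPM in Gpnmb+, and the groups overlapped. Of 14 interferon response genes, 6 were higher and 8 lower in DBA/2J, none had non-overlapping pools, and the median log2 fold change was -0.05. edgeR, DESeq2 and the unadjusted p called none of the 14.

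Cxcl1, Cxcl2, Cxcl3 and Cxcl5 are the ligands of Cxcr2 and attract neutrophils. They too stand together on chromosome 5, and their values were set largely by single pools. Cxcl1 was at 26.4, 3.47 and 6.37 CPM in DBA/2J and at 2.07 and 3.01 CPM in Gpnmb+. DBA/2J pool 1 held most of the difference, although pools 2 and 3 were also above both Gpnmb+ pools. The log2 fold change of Cxcl1 was 2.25 ± 0.90 (adjusted p = 0.302 by edgeR), and 0.96 without DBA/2J pool 1. For Cxcl3, the DBA/2J pools gave 179, 2 and 7 counts and the Gpnmb+ pools 1 and 0. The ratio of the summed counts of Cxcl3 per sequenced read was 142 with a 95% counting interval of 25.2 to 5636, and 10.3 with an interval of 1.42 to 449 without DBA/2J pool 1. Both intervals cover counting error and not the spread between pools. Cxcl3 reached the count minimum in DBA/2J pools only, which favours a higher ratio, so neither interval shows a difference between genotypes. Cxcl5 was at 33.2, 6.87 and 12.5 CPM in DBA/2J and at 9.44 and 5.83 CPM in Gpnmb+, and Cxcl2 was at 5.24, 1.03 and 1.61 CPM in DBA/2J and at 2.94 and 0.184 CPM in Gpnmb+. Both overlapped between genotypes.

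On chromosome 5, Cxcl10 lies in the Cxcl9 cluster, apart from Cxcl1, Cxcl2 and Cxcl3. The sequences just before the starts of these genes are shown because each holds the same motif, the NF-kB consensus. They were taken from the RefSeq promoter table (GRCm38.p6) and placed by exact match in GRCm39, and bases that an annotated exon covers were left out. Capitals mark matches on either strand to the NF-kB consensus and, in Cxcl10, to the letters GAAANNGAA, the core of the interferon-stimulated response element, and overlapping matches were merged.
Cxcl1, chr5:91038984-91039093, plus strand: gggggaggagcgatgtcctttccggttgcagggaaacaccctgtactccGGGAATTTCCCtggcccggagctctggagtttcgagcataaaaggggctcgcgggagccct
Cxcl2, chr5:91051638-91051729, plus strand: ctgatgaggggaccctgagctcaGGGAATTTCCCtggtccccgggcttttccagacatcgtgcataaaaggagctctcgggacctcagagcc
Cxcl3, chr5:90933840-90933959, plus strand: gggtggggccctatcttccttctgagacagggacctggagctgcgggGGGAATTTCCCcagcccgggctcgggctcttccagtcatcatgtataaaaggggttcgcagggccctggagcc
Cxcl10, chr5:92496749-92496988, minus strand: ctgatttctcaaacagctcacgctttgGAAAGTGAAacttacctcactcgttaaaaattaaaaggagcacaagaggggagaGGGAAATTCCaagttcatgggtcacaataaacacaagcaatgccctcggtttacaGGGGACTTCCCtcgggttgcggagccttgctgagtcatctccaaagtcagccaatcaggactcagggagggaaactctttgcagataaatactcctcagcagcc

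In Cxcl1, Cxcl2 and Cxcl3 the match is the same run of letters, GGGAATTTCCC, which begins 71, 97 and 73 bases before the start. It reads as a match on both strands. Cxcl10 holds matches that begin 159 and 104 bases before the start, and the interferon motif 213 bases before it. Entries for 45 of the 63 members were found in the table. With the 250 bases before the start searched on both strands, 11 of their 52 entries held the NF-kB consensus, against 7.25% of 32851 entries of all genes, and 8 held GAAANNGAA, against 7.13%. The others with the NF-kB consensus were Ccl1, Ccl9, Ccl20, Ccr1, Ccr3, Ccr6 and Ackr2. Cxcl9 had an entry without it. Cxcl5 and Cxcl11 were not among the members with it, but a member without an entry could not be, so absence of the motif cannot be read from this. Besides Cxcl10, the members with GAAANNGAA were Ccl1, Ccl3, Ccl19, Ccr2, Cxcl9, Cxcl14 and Cxcr1. A match describes letters and not binding.

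The pools of 1 genotype differed from one another in the genes of neutrophils and inflammatory monocytes. In DBA/2J, 17 of the 52 members were at least 2-fold higher in pool 1 than in the mean of pools 2 and 3 on the log2 CPM scale, against 3.07% of all tested genes. In Gpnmb+, pool 1 was also higher for many of these. A 2-fold excess in pool 1 of both genotypes was found for 9 members (17.3%), against 1.26% of all tested genes, and a 2-fold deficit in both for 0. The 9 members, grouped after their values were seen, were Ccl4, Ccl6, Ccl7, Ccl9, Cxcl2, Cxcl14, Ccr1, Ccr3 and Cxcr2. The labels do not say that the pool numbers mark a shared day or batch.

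Cxcr2, the neutrophil receptor for Cxcl1 and its relatives, showed the pattern most plainly. It was at 31.0, 3.40 and 6.21 CPM in DBA/2J and at 13.8 and 1.90 CPM in Gpnmb+. Pool 1 of each genotype was far above the rest, and the groups overlapped (log2 fold change 0.79 ± 1.13). Ccl9, a ligand of Ccr1, was at 62.2, 14.5 and 21.7 CPM in DBA/2J and at 54.9 and 13.0 CPM in Gpnmb+. Ccr2, the receptor of inflammatory monocytes, was at 68.4, 40.9 and 29.8 CPM in DBA/2J and at 142 and 19.4 CPM in Gpnmb+, so the highest and the lowest of the 5 pools were both Gpnmb+. Its log2 fold change was -0.80 ± 0.76 and became 1.26 without Gpnmb+ pool 1.

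**Figure D4:**
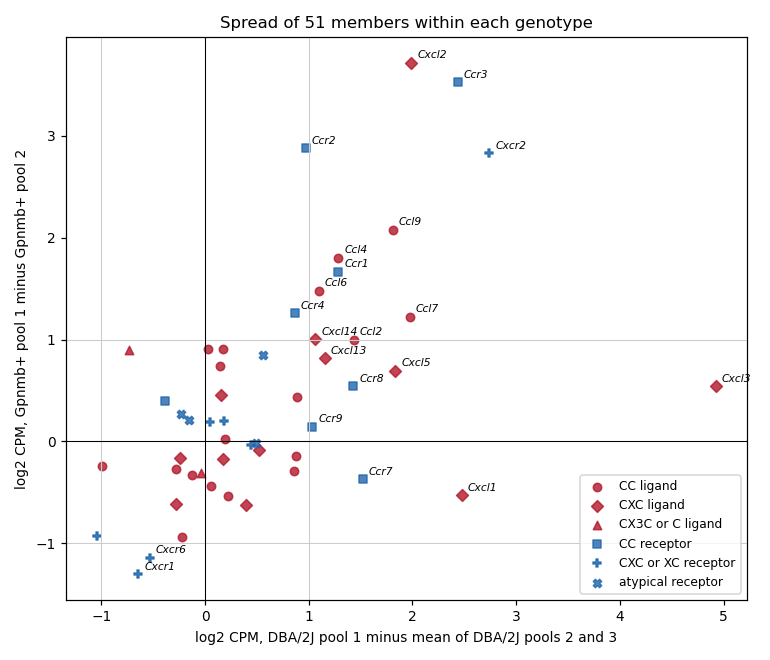
The x axis is the log2 CPM of DBA/2J pool 1 minus the mean of DBA/2J pools 2 and 3, and the y axis that of Gpnmb+ pool 1 minus Gpnmb+ pool 2, with 1 point for each of 51 tested members. Cxcl2, Ccr3, Cxcr2 and Ccl9 lie far up and right, high in pool 1 of both genotypes, whereas Cxcl1, Cxcl3 and Ccr7 lie far right only.

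The summed level of monocyte and neutrophil markers was highest in the pools numbered 1. Summed over the list they gave 362, 115 and 114 CPM for DBA/2J against 292 and 163 CPM for Gpnmb+. Plac8 was the largest part of the Gpnmb+ sums, at 178 and 141 CPM, and was at 108, 78.9 and 73.1 CPM in DBA/2J. S100a8, a calcium-binding protein abundant in neutrophils, was at 56.1, 5.64 and 7.13 CPM in DBA/2J and at 17.3 and 3.56 CPM in Gpnmb+. The neutrophil marker Ly6g had 7 counts in DBA/2J pool 1, 2 in Gpnmb+ pool 1, which is under the floor of 3 counts, and none in the other 3 pools. The neutrophil granule genes Ngp and Camp did not share the pattern in both genotypes. Ngp was at 0.832, 0.233 and 0.157 CPM in DBA/2J and at 0.0197 and 0.429 CPM in Gpnmb+, and Camp had 45, 18 and 39 counts against 58 and 44 counts. Of the 10 markers 9 were tested, 7 were higher in DBA/2J and none was called higher. At the unadjusted p only Plac8 was lower, and DESeq2 called 1 lower. Red blood cell markers, chosen after their values were seen, did not follow the pattern, with 127, 78.8 and 80.0 CPM for DBA/2J against 49.9 and 170 CPM for Gpnmb+. The part of these cells in the chemokine values was not tested.

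With pool 1 of each genotype left out, an alternative chosen after these values were seen, 40 of 50 members had a log2 fold change above 0 and the median was 0.50, against 0.00 for all tested genes. In that comparison 33 members were higher in both DBA/2J pools than in the single Gpnmb+ pool, an arrangement that 36.7% of all tested genes showed. The log2 fold change was then 1.48 for Ackr4 and 1.84 for Cxcl14. With 1 Gpnmb+ pool left, the spread within that group is unknown, so only fold changes are given.

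**Figure D5:**
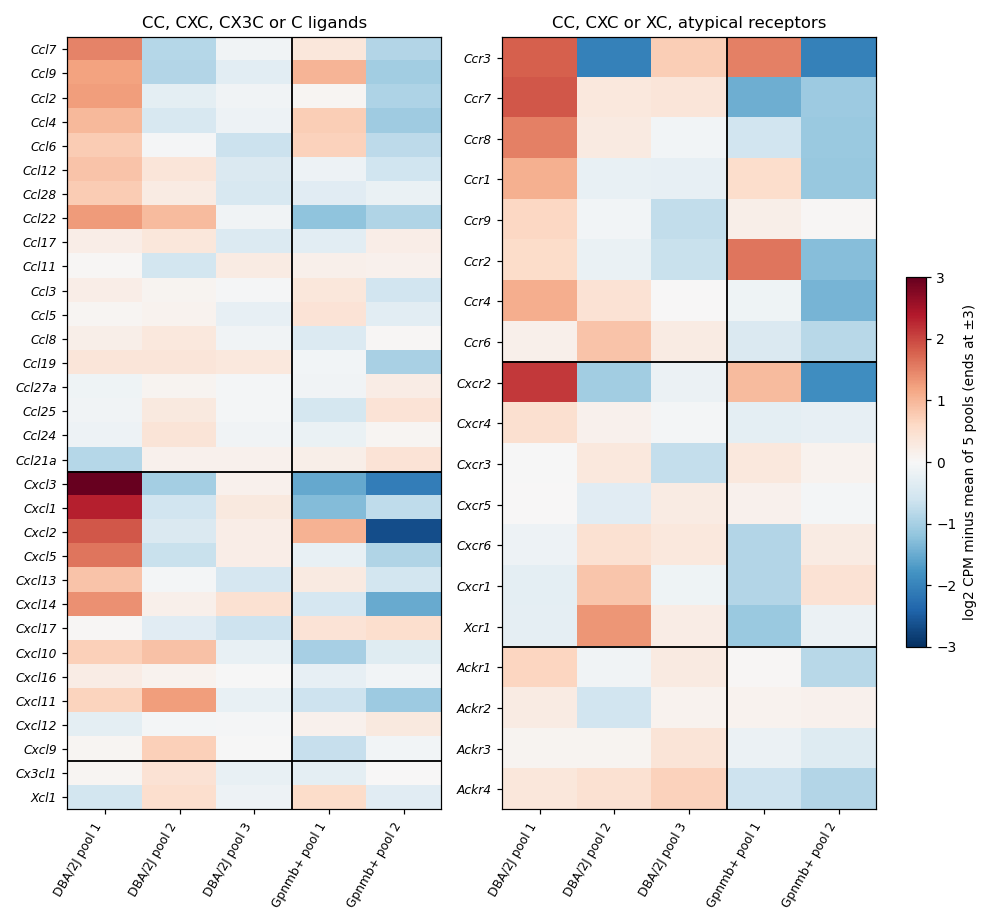
Colour gives the log2 CPM (prior count 2) of 51 tested members, each minus its mean over the 5 pools, with chemokines on the left, receptors on the right, pools as columns and classes divided by lines. DBA/2J pool 1 is red for Cxcl1, Cxcl2, Cxcl3, Cxcl5, Ccl7 and Cxcr2, and Gpnmb+ pool 1 is red for Ccr2, Ccr3, Cxcl2, Ccl9 and Cxcr2.

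Among the inflammatory CC ligands described next, no member was called by edgeR or DESeq2. Ccl2, Ccl7 and Ccl12, the ligands of Ccr2, had log2 fold changes of 0.81 ± 0.55, 0.67 ± 0.74 and 0.72 ± 0.39 and overlapping pools. Ccl6 had the highest mean CPM of the CC ligands, although Ccl21a was higher in DBA/2J pool 3 and Gpnmb+ pool 2. Ccl6 was at 118, 68.3 and 44.8 CPM in DBA/2J and at 113 and 40.6 CPM in Gpnmb+, and its log2 fold change was 0.00 ± 0.53. Ccl3, Ccl4 and Ccl5, which attract macrophages and T cells, and the eotaxins Ccl11 and Ccl24 had log2 fold changes between -0.19 and 0.14. Ccr1, a receptor of monocytes and neutrophils, was at 34.1, 14.1 and 13.9 CPM in DBA/2J and at 23.7 and 7.46 CPM in Gpnmb+. The groups overlapped. Macrophage markers were higher in DBA/2J for 8 of 10 genes with a median log2 fold change of 0.19. None of the 10 was called by edgeR, by DESeq2 or at the unadjusted p.

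Cxcl12, a homeostatic chemokine of stromal cells, was the most abundant member by CPM. It was at 292, 343 and 348 CPM in DBA/2J and at 391 and 439 CPM in Gpnmb+. All DBA/2J pools were below both Gpnmb+ pools, and the log2 fold change was -0.34 ± 0.12 (adjusted p = 0.243 by edgeR). Its receptor Cxcr4 was at 52.6, 41.3 and 36.4 CPM in DBA/2J and at 30.9 and 31.7 CPM in Gpnmb+ (log2 fold change 0.47 ± 0.16, adjusted p = 0.251 by edgeR). Ackr3, the atypical receptor that removes Cxcl12, was at 68.4, 68.7 and 84.1 CPM in DBA/2J and at 57.7 and 49.9 CPM in Gpnmb+ (log2 fold change 0.45 ± 0.13, adjusted p = 0.179 by edgeR). The ligand was thus lower and both receptors higher in every DBA/2J pool, and none of the 3 passed the test. There were 0.105 to 0.180 Cxcr4 reads per Cxcl12 read in DBA/2J and 0.0722 and 0.0789 in Gpnmb+. The Ackr3 reads per Cxcl12 read were up to 0.242 in DBA/2J and 0.114 and 0.147 in Gpnmb+. Given the directions of the 3 genes, both ratios had to be higher in every DBA/2J pool. Cxcl12 lies on chromosome 6, 68.1 Mb from Gpnmb, and is the only member on that chromosome.

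Cxcl14, a chemokine of epithelia and skin, was at 174, 74.8 and 92.6 CPM in DBA/2J and at 47.4 and 23.6 CPM in Gpnmb+. DBA/2J pool 1 was the highest and the groups did not overlap (log2 fold change 1.68 ± 0.46, adjusted p = 0.165 by edgeR). Cxcl17, a chemokine of mucosal epithelia, went the other way. It was at 8.82, 6.78 and 5.58 CPM in DBA/2J and at 11.4 and 12.1 CPM in Gpnmb+, with a log2 fold change of -0.74 ± 0.21, not called by edgeR (adjusted p = 0.175) and called by DESeq2 (adjusted p = 0.0388). The corneal and limbal epithelium markers had summed levels of 7691 to 12147 CPM in DBA/2J and 11601 to 13172 CPM in Gpnmb+, with 5 of 8 genes lower and none called by edgeR or DESeq2. At the unadjusted p 1 was lower. Krt12, the keratin of corneal epithelium, was at 254, 116 and 9.44 CPM in DBA/2J and at 1702 and 554 CPM in Gpnmb+, a wide spread between pools of the same genotype. The part of epithelium in the Cxcl14 and Cxcl17 differences was not tested. Cxcl16, the transmembrane ligand of Cxcr6, was at 117, 108 and 98.8 CPM in DBA/2J and at 83.5 and 94.0 CPM in Gpnmb+ (log2 fold change 0.28 ± 0.11, adjusted p = 0.284 by edgeR).

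The remaining members had overlapping pools. Ccl8, Ccl27a, Ccl28, Cxcl13, Cxcr1, Cxcr5, Cxcr6, Ccr9, Ackr1 and Ackr2 had log2 fold changes from -0.15 for Ackr2, a scavenger of inflammatory CC chemokines, to 0.64 for Ackr1, the chemokine-binding protein of venules and red blood cells. Ccr3, the eosinophil receptor for the eotaxins, was counted 25, 0 and 11 times in the DBA/2J pools against 23 and 0 times in Gpnmb+, and each genotype held a pool without a count. Xcl1 was at 0.225 to 0.532 CPM over the 5 pools. Xcr1, its receptor on cross-presenting dendritic cells, was at 1.24, 3.82 and 1.75 CPM in DBA/2J and at 0.670 and 1.31 CPM in Gpnmb+, and DBA/2J pool 1 fell just below Gpnmb+ pool 2.

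Many members sit in clusters of duplicated genes, and neighbours did not behave alike in every cluster. On chromosome 5, all 4 tested genes of the Cxcl1 cluster (GRCm39 90907186 to 91053797) and all 3 of the Cxcl9 cluster (92469206 to 92513344) had log2 fold changes above 0. On chromosome 11, 4 of 5 tested genes of the Ccl2 cluster (81926397 to 82196516) and 3 of 5 of the Ccl5 cluster (83416602 to 83555509) did, and none of these 10 genes had non-overlapping pools. On chromosome 9, none of the receptor genes Ccr9, Cxcr6, Xcr1, Ccr1, Ccr3 and Ccr2 had non-overlapping pools. The adjacent genes Ccl19 and Ccl21a on chromosome 4 went in opposite directions.

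Genes around the chemokine system were described from lists written beside the members. Of 32 tested genes that signal downstream of chemokine receptors, 25 were higher in DBA/2J, 8 of them with non-overlapping pools. Among all tested genes, 47.4% had a log2 fold change above 0 and 17.3% lay wholly higher in DBA/2J. Their median log2 fold change was 0.17. None was called by edgeR, and the unadjusted p and DESeq2 gave 1 each, higher. Among those whose pools did not overlap, the largest differences were in the kinase Ptk2b (0.59 ± 0.11), the engulfment and motility gene Elmo1 (0.55 ± 0.15) and Rgs2, a regulator of G protein signalling (0.55 ± 0.24), on the log2 scale.

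Of 15 relatives that the rule left out, 9 were higher and none was called by edgeR, by DESeq2 or at the unadjusted p. The largest differences among those with non-overlapping pools were Gpr35 (0.86 ± 0.38), Ccrl2, which presents chemerin (0.66 ± 0.34), and Cmklr1, the chemerin receptor (0.42 ± 0.18), on the log2 scale. Cx3cr1, the receptor of Cx3cl1 on macrophages and microglia, was at 60.7, 80.7 and 59.3 CPM in DBA/2J and at 56.4 and 44.9 CPM in Gpnmb+ (log2 fold change 0.40 ± 0.18, adjusted p = 0.343 by edgeR).

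Of 22 tested genes that cleave, modify or present chemokines, 15 were higher, 12 of them with non-overlapping pools, where 17.3% of all tested genes lay wholly higher. Mmp12 was called higher by edgeR. Mmp12, the macrophage elastase that trims CXC chemokines, was at 206, 167 and 171 CPM in DBA/2J and at 99.7 and 96.7 CPM in Gpnmb+. The pools were well apart, with a log2 fold change of 0.89 ± 0.12 and an adjusted p of 0.0440 by edgeR. The call of Mmp12 was lost without any 1 pool, where its log2 fold change ran from 0.78 to 0.94. Without 1 DBA/2J pool its adjusted p ran from 0.0991 to 0.121 by edgeR, and at most 0.0511% of all tested genes were called higher.

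Of 20 tested genes on a list of cytokines, NF-kB pathway genes and adhesion molecules, 17 were higher in DBA/2J, 9 of them with non-overlapping pools. The adhesion molecules Icam1, Vcam1, Sele and Selp were among the 9. The 3 lower genes were Tnf, Il1a and Nfkbiz, with log2 fold changes of -1.08 ± 0.63, -0.13 ± 0.32 and -0.25 ± 0.46 and overlapping pools. Among all tested genes, 17.3% lay wholly higher in DBA/2J. The list's median was 0.20 on the log2 scale. None was called by edgeR, whereas the unadjusted p gave 4 and DESeq2 2, all higher. Il6 was at 10.3, 0.349 and 0.807 CPM in DBA/2J and at 0.217 and 0.164 CPM in Gpnmb+, and so, like Cxcl1 and Cxcl3, was highest in DBA/2J pool 1. Its log2 fold change was 4.31 ± 1.68 (adjusted p = 0.293 by edgeR) and 1.59 without that pool. Selp and Sele, the selectins on which leukocytes roll along endothelium, had log2 fold changes of 1.35 ± 0.48 and 1.08 ± 0.22, with adjusted p of 0.261 and 0.0947 by edgeR. Sele was at 12.3, 8.15 and 11.6 CPM in DBA/2J and at 5.40 and 4.74 CPM in Gpnmb+.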

How the data were processed

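Iridocorneal tissue of 3 DBA/2J and 2 Gpnmb+ pools was sequenced as paired-end mRNA libraries. Per the authors' methods and labels, fastp trimming was followed by STAR alignment to GRCm39. The deposited values are raw counts, the sum of uniquely aligned reads on each gene, and had not been normalized. Whether counting used strand is not given in the sources used here, so overlapping genes are uncertain. All sample columns were used. Symbols, positions and exon lengths were taken from GENCODE M39, where 56323 of 56941 identifiers were found.

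The test was run in R 4.3.3 with edgeR 4.0.16 (TMM, quasi-likelihood, no covariate) on genes reaching 10 counts in any pool. Calls required a Benjamini-Hochberg adjusted p no higher than 0.05 together with a change of 1.5-fold or more. Alternatives were DESeq2 1.42.0 with and without ashr 2.2.63, limma 3.58.1 (voom), other count filters and scalings, the replicate number as a block, and each pool left out. The edgeR fit was tested on simulated data. Since a permutation test of 1 gene in 3 pools against 2 has a smallest exact two-sided p of 0.2, p-values come from fits across all genes and measure the spread between pools. Intervals and floors of 3 counts cover counting error only.

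Each member was described by role. Values per pool were given for members called by edgeR or DESeq2, for those with non-overlapping pools and a 1.5-fold change, for the 5 ligands and 5 receptors of highest mean CPM, and for known partners of called members. From each pathway list, genes called by edgeR were named, otherwise the 3 of largest difference among those with non-overlapping pools. For 1 member and 1 gene of a list, single values are not reported here, although both enter the counts. Other genes given per pool were chosen after their values were seen. The members and gene lists were chosen with earlier results of these data known. Tables and plots were made in Python 3.11.15.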

Additional observations from a re-analysis of the deposited data

How the results depend on the processing

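edgeR called 1 member higher and 0 lower, and both counts were the same with DESeq2's size factors, limma-voom, no count filter, edgeR's filterByExpr and no fold change minimum. DESeq2 called 4 higher and 1 lower, ashr moderation left 3 higher, and the unadjusted p gave 10 higher and 1 lower. Leaving out both pools numbered 1, chosen after seeing the data, leaves 1 Gpnmb+ pool, so its calls are not given. Leaving out any 1 DBA/2J pool gave 0 called in either direction, where at most 0.0511% of all tested genes were called higher and 0.0357% lower. Without a Gpnmb+ pool no member kept a call either. With the replicate block, which treats same-numbered pools as paired, 3 members were called higher (Cxcl3, Ccl22 and Cxcl14), against 0.609% of all tested genes, and Ackr4 was not (log2 fold change 1.15, adjusted p = 0.0612 by edgeR). Across genes, the deviations of same-numbered pools from their genotype means correlated at 0.279 for pools 1 and 0.254 for pools 2. With 2 Gpnmb+ pools, their deviations mirror each other, so the correlations with the other Gpnmb+ pool were -0.279 and -0.254. The 2 values are therefore not independent of each other. The labels do not say that the numbers mark a batch and only 2 numbers are shared, so this fit shows how calls move and not a weaker effect. The median log2 fold change stayed above 0, from 0.04 with ashr moderation, which shrinks uncertain values, to 0.78 without Gpnmb+ pool 1. Members with non-overlapping pools numbered 19, and 20 to 37 with 1 pool left out or 40 without both pools numbered 1, as fewer pools overlap less. Among all tested genes, the pools lay wholly higher in DBA/2J for 21.8% to 31.4% and wholly lower for 23.2% to 34.1% with 1 pool left out, and for 36.7% and 40.8% without both pools numbered 1. Cxcl3 reached the count minimum in DBA/2J pools only, which favours a call as higher there. With any 1 pool left out, the log2 fold change turned sign for 24 of the 52 tested members (46.2%), against 37.4% of all tested genes. Among the members given per pool by the stated rule, it turned for Ccl25 (-0.36 to 0.60), Ccl6 (-0.55 to 0.93), Ccr1 (-0.20 to 1.48) and Ccr2 (-1.62 to 1.26), and it did so without both pools numbered 1 for Ccl25 (-0.27) and Ccr2 (0.88). The cause was not tested. With 2 Gpnmb+ pools, leaving 1 out assumes that the other varies like the DBA/2J pools. DESeq2 gave no adjusted p for Ccr3, Ccr4 and Ccr8, which had few counts.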

Other observations

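Markers of other cells that could carry chemokines or their receptors were summed per pool in the same fit. Conventional dendritic cell markers were higher in DBA/2J for 8 of 10 genes, 5 of them with non-overlapping pools, where 17.3% of all tested genes lay wholly higher. The summed levels were 369 to 454 CPM in DBA/2J and 343 to 347 CPM in Gpnmb+. Mast cell markers were higher for 2 of 7 genes, at 249 to 262 CPM and 226 to 288 CPM, and NK cell markers for 2 of 7, at 2.56 to 3.78 CPM and 3.68 to 6.15 CPM. Blood endothelium markers were higher for 3 of 8 genes, at 414 to 544 CPM and 436 to 467 CPM. Skeletal muscle markers were higher for 8 of 8 genes, at 189 to 447 CPM and 119 to 189 CPM, and pigment cell markers for 2 of 7.

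Ppbp, a CXC chemokine gene that the naming rule leaves out and that lies among the Cxcl1 cluster on chromosome 5, was at 31.0, 0.606 and 0.695 CPM in DBA/2J and at 4.81 and 0.797 CPM in Gpnmb+. The platelet marker Itga2b was at 2.77 to 2.94 CPM in DBA/2J and at 2.50 and 3.19 CPM in Gpnmb+, and Pf4 at 11.9, 6.97 and 7.53 CPM against 11.9 and 7.13 CPM. Both lists of blood cell markers were chosen after their values were seen.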
